A study of Mus musculus with 6 samples.

Results

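Collagen genes were examined in polyA RNA from J1 mouse embryonic stem cells, an established line, that lacked Mettl5 (genotype Mettl5 -/-, called Mettl5 KO) and from wild-type (WT) cells of the same line, with 3 libraries of each genotype. METTL5 adds N6-methyladenosine to ribosomal RNA of the small subunit, and the series asked how its loss bears on pluripotency and development. All cells had been in serum and LIF, the cytokine that holds these cells undifferentiated, for 7 days. RNA was selected on oligo dT beads and fragmented to 100 nt, and 0.1 µg of it entered stranded Illumina libraries. The labels do not say whether the KO cells were 1 clone or several, or whether replicates were separate cultures, and p-values here rest on a spread among libraries that may be technical. Members were all protein-coding genes whose GENCODE M21 symbol reads Col, a number, a, a number. There were 44 such genes, of which 43 were among the 24191 genes of the deposited table. The one that was not listed was Col19a1. By the proteins they encode, 11 members were fibrillar, 9 belonged to basement membranes and 23 to other classes.

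Collagens are secreted or membrane-bound proteins in which α chains with repeated glycine wind into a rope-like helix. Fibrillar collagens assemble into the cross-striated fibres that give connective tissue its tensile strength, and type IV collagen forms the sheet-like network of basement membranes. Other collagens decorate fibrils, form beaded filaments or span the plasma membrane. Before gastrulation the mouse embryo lays down basement membranes rich in laminin and type IV collagen, whereas fibrillar collagen is best known from mesenchyme, bone and cartilage.

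Mettl5 (ENSMUSG00000051730, chromosome 2) had TPM-scale levels of 3.65, 3.58 and 3.32 in KO libraries, against 50.3, 48.6 and 48.7 in WT libraries. All 8 stem cell markers examined averaged 51.8 or more in KO and 98.5 or more in WT cells, but 6 of them were lower in KO cells, 1 higher and 1 not called (median log2 fold change -0.49). The pluripotency factor genes Zfp42 and Esrrb, which fell the most of the 8, were at 237.5 and 51.8 in KO cells and at 583.5 and 98.5 in WT cells. Pou5f1 fell the least of the 6 lower markers (1330 in KO and 1498 in WT cells, log2 fold change -0.09). Nanog was not called (156.6 in KO and 158.1 in WT cells), and Dppa5a was higher (2729 in KO and 2330 in WT cells). The markers' part in the collagen values was not tested, and their summed level was 4909 to 5352 in KO and 5374 to 5771 in WT libraries. Scaled reads summed to between 51499598 and 51829716 in KO libraries and between 46076612 and 46541352 in WT libraries. Between 29.7% and 32.8% of low values lay within 0.02 of whole multiples of a step particular to each library. That step was the one with the highest share among those tried, and the median share over the steps tried was 3.31% to 3.53%. If 1 step is 1 fragment, KO libraries held 40439417 to 59642941 and WT libraries 38543563 to 52749412 fragments, but for genes with several transcripts the number of fragments behind a value cannot be recovered. Genes on chromosomes 6, 8 and 11 were lower in KO cells in general, with median log2 fold changes of -0.29, -0.38 and -0.41, and 6 members lie there.

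Levels below are on the deposited TPM scale, the quantity per transcript length, and fold changes are on log2(scaled reads + 1), KO over WT. Within a gene both columns carried nearly the same information. Once each library's median was divided out, their ratio varied by a median coefficient of variation of 0.402% across libraries. Between genes that ratio followed the median length of the annotated transcripts (Spearman rho 0.99 across 23846 genes that share the same libraries, given as a description). Members with many short annotated transcripts therefore had few scaled reads per TPM unit. In KO libraries Col1a1 had 16.97, with a median transcript of 428 bases and a longest one of 5930. The corresponding value for Col1a2 was 112.1, with a median of 2034 and a longest transcript of 5348 bases. An order of levels between genes is thus conditional on how reads were divided between long and short transcripts. None of the members was at 0 in any library.

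**Figure D1:**
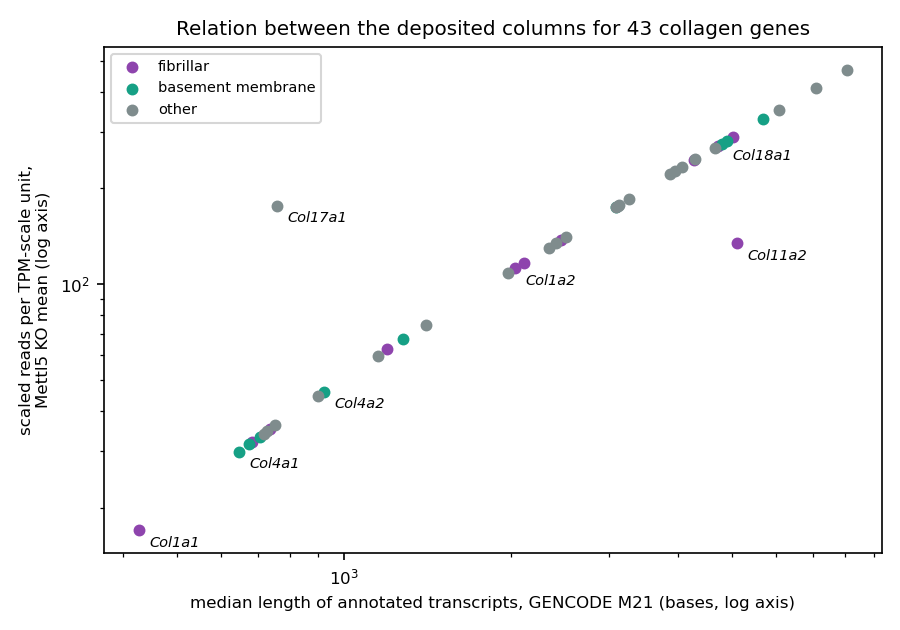
Scaled reads per TPM-scale unit (mean of 3 Mettl5 KO libraries, log axis) against the median length of a gene's annotated transcripts (bases, log axis) for the 43 collagen genes, coloured by class. Most points fall on one line, from Col1a1 at 16.97 to Col6a5 at 468, and Col17a1 (176.2) and Col11a2 (134.1) lie off it.

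KO cells had more RNA of most fibrillar and nearly all basement membrane collagens, while members of the other classes went both ways. Of 42 members tested, 22 were higher in KO cells, 10 were lower and 10 did not pass (limma, Benjamini-Hochberg adjusted p under 0.05 over 24183 genes). Over all genes tested, 33.6% were called higher and 28.9% lower, 62.6% in either direction. The TPM column gave 21 higher and 10 lower members, beside 29.9% and 31.9% of all genes. Rescaling to equal totals, which moved the median of all genes by -0.15, gave 21 and 10 members, beside 26.1% and 37.8% of all genes, and centring per chromosome gave 22 and 10, beside 26.9% and 33.7%. By class, 9 of 11 fibrillar members were higher and 1 was lower, 8 of 9 basement membrane members were higher and none lower, and 5 of 22 tested members of other classes were higher and 9 lower. The median log2 fold change was 2.02 in the fibrillar class, 1.03 in the basement membrane class and -0.03 in the other class, against 0.00 over all genes. A rise of at least 1 on the log2 scale was called in 18 members (11.4% of all genes) and a fall of that size in 5 (9.93% of all genes). In 33 of 43 members the KO and WT libraries did not overlap, as in 67.8% of all genes. Col28a1, found in peripheral nerve, had a mean below 1 scaled read and was not tested.

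In WT cells 11 members reached a mean of 1 on the TPM scale, and in KO cells 21 did. Of these, 10 reached it in both genotypes, 11 in KO cells alone and 1, the transmembrane collagen gene Col13a1, in WT cells alone. Below it in both genotypes were 21 members, of which 5 were called higher and 5 lower (33.6% and 28.9% of all genes). The summed level of all collagen genes was 201, 194 and 196 in KO libraries and 107, 111 and 103 in WT libraries, 1.84 times as high on the mean. The fibrillar sum was 41.5, 40.2 and 41.6 in KO libraries and 5.52, 6.67 and 5.25 in WT libraries. The basement membrane sum was 139.5, 134 and 134 in KO libraries and 77.9, 81.9 and 75.2 in WT libraries. The sum of the other classes was 20.1, 19.8 and 20.1 in KO libraries and 23.5, 22.9 and 22.8 in WT libraries. Genotypes did not overlap in any of these sums, and each gave an exact permutation p of 0.1 (two-sided), the smallest that 3 against 3 libraries allow. Summed as scaled reads, the fibrillar class was at 3682, 3645 and 3770 in KO libraries and at 837, 824 and 782 in WT libraries, 4.54 times as high on the mean, against 7.07 times on the TPM scale. On scaled reads the other classes were higher in KO cells (3107 ± 98.4 against 2999 ± 23.9, SD, n = 3). The fibrillar share of all collagen RNA on the TPM scale was 20.6% to 21.2% in KO and 5.08% to 5.98% in WT libraries, and on scaled reads it was 11.8% to 12.3% in KO and 5.02% to 5.17% in WT libraries. In such bulk samples, more cells of a type and more RNA per cell cannot be told apart.

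**Figure D2:**
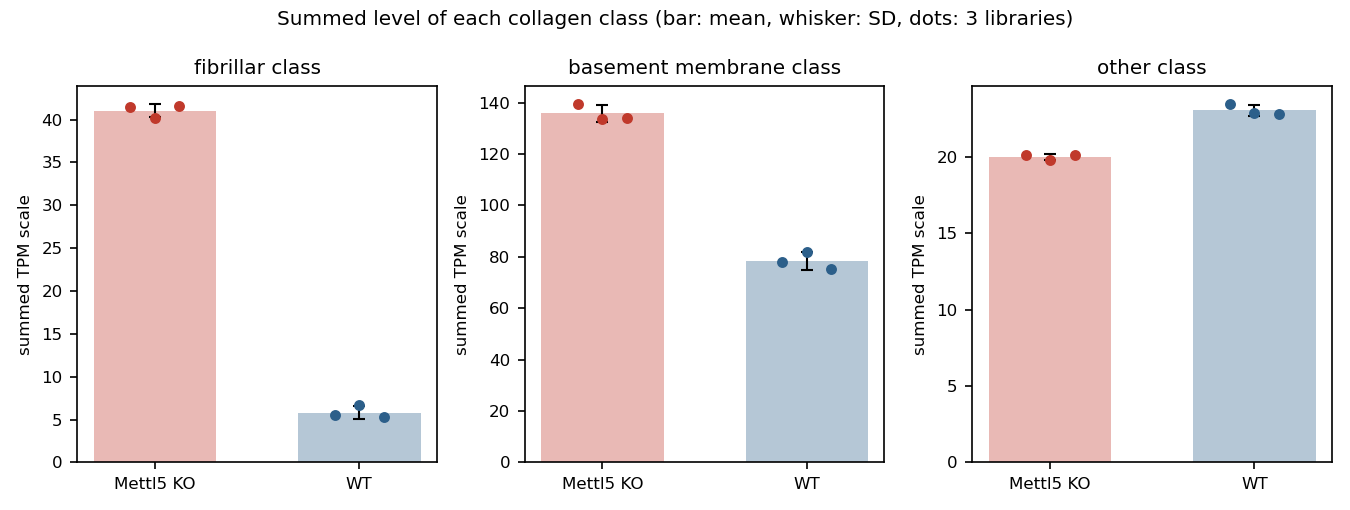
Summed TPM-scale level of the fibrillar, basement membrane and other collagen genes in Mettl5 KO and WT libraries. Bars are means, whiskers SD and dots the 3 libraries, and KO means of the fibrillar and basement membrane classes are 41.1 and 135.8, against 5.81 and 78.3 in WT.

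**Figure D3:**
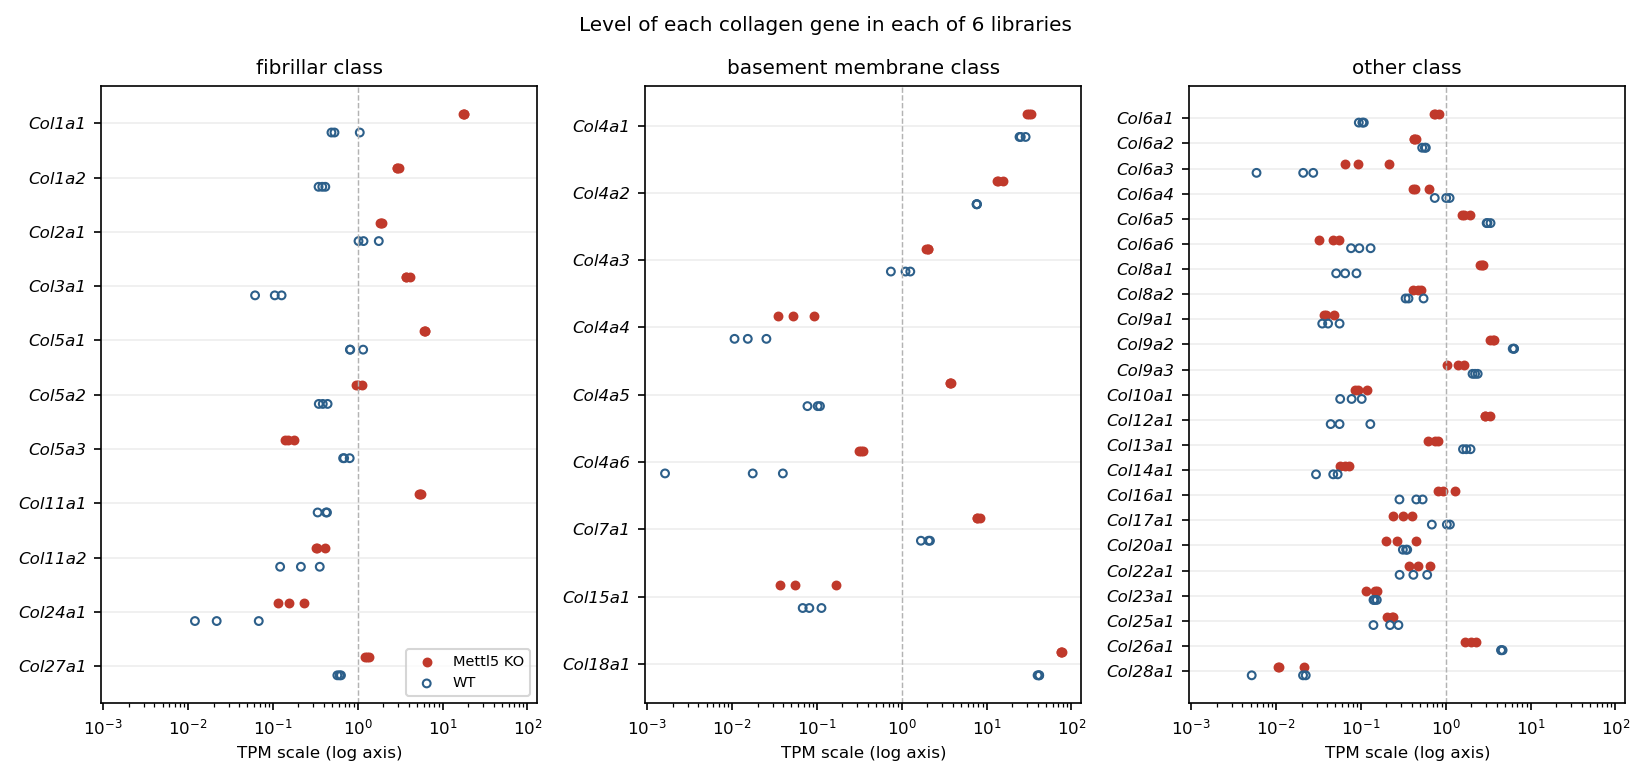
TPM-scale level (log axis) of each of the 43 collagen genes in 3 Mettl5 KO libraries (filled) and 3 WT libraries (open), by class, with a dashed line at 1. Fibrillar genes other than Col5a3 and Col11a2 lie to the right in KO libraries, while Col6a4, Col6a5, Col9a2, Col13a1 and Col26a1 lie to the left.

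Type I collagen, the main collagen of bone and connective tissue, is built from the products of Col1a1 and Col1a2. Col1a1 (ENSMUSG00000001506, mm10 chromosome 11, 94936224 to 94953042) was at 17.97, 17.2 and 18.01 in KO libraries and at 0.491, 1.06 and 0.532 in WT libraries. The log2 fold change of Col1a1 came to 4.73 (SE 0.249, limma adjusted p 2.23e-07). Col1a2 (ENSMUSG00000029661, mm10 chromosome 6, 4504814 to 4541544) was at 2.95, 3.04 and 2.90 in KO libraries and at 0.382, 0.346 and 0.415 in WT libraries, a log2 fold change of 2.98 (SE 0.105, limma adjusted p 1.56e-08). Both genes were far above their WT range in every KO library, although chromosomes 6 and 11 had negative medians. After subtraction of each chromosome's median, their log2 fold changes were 5.10 and 3.25. Col3a1, whose homotrimer accompanies type I fibrils in skin and vessels, was at 4.17, 3.68 and 3.68 in KO libraries and at 0.105, 0.0617 and 0.127 in WT libraries. That gave a log2 fold change of 5.03 (SE 0.251, limma adjusted p 1.56e-07), or 4.33 on log2(TPM + 0.1).

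Type V collagen nucleates type I fibrils and type XI does so for cartilage fibrils. Col5a1 was at 6.04, 6.16 and 6.27 in KO libraries and at 1.16, 0.81 and 0.817 in WT libraries (log2 fold change 2.79). Its partner chain gene Col5a2, the neighbour of Col3a1 on chromosome 1 with a gap of 24614 bases, was at 1.02, 0.955 and 1.14 in KO libraries and at 0.348, 0.442 and 0.388 in WT libraries (log2 fold change 1.44). Col5a3, the chain of type V found in fewer tissues, went the other way. It was at 0.179, 0.14 and 0.149 in KO libraries and at 0.674, 0.692 and 0.805 in WT libraries, a log2 fold change of -2.15 (SE 0.134, limma adjusted p 7.05e-07) and the largest fall of any member. The 3 chain genes of one collagen type therefore did not share a direction. Col11a1 was at 5.46, 5.35 and 5.64 in KO libraries and at 0.435, 0.424 and 0.337 in WT libraries (log2 fold change 3.81). Its partner Col11a2 stayed at a mean of 0.358 in KO and 0.231 in WT cells, with overlapping libraries and no call (log2 fold change 0.78, limma adjusted p 0.0712). Without WT replicate 2 it was called higher (log2 fold change 1.15, limma adjusted p 0.00725).

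Among the remaining fibrillar genes, Col27a1, which is expressed in developing cartilage, was at 1.28, 1.22 and 1.34 in KO libraries and at 0.611, 0.635 and 0.576 in WT libraries (log2 fold change 1.12). Col24a1 was among the lowest of the class, with means of 0.167 in KO and 0.034 in WT cells and a log2 fold change of 2.02 (SE 0.482, limma adjusted p 0.00493). Col2a1, the main collagen of cartilage, was at 1.94, 1.85 and 1.86 in KO libraries and at 1.17, 1.77 and 1.02 in WT libraries. WT replicate 2 was close to the KO libraries, and the Col2a1 log2 fold change came to 0.62 (SE 0.208, limma adjusted p 0.0276). That call was lost on the TPM column (adjusted p 0.0528), with libraries rescaled to equal totals (adjusted p 0.0786), and without any of the KO libraries or without WT replicate 1 or 3 (adjusted p up to 0.0854). 

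**Figure D4:**
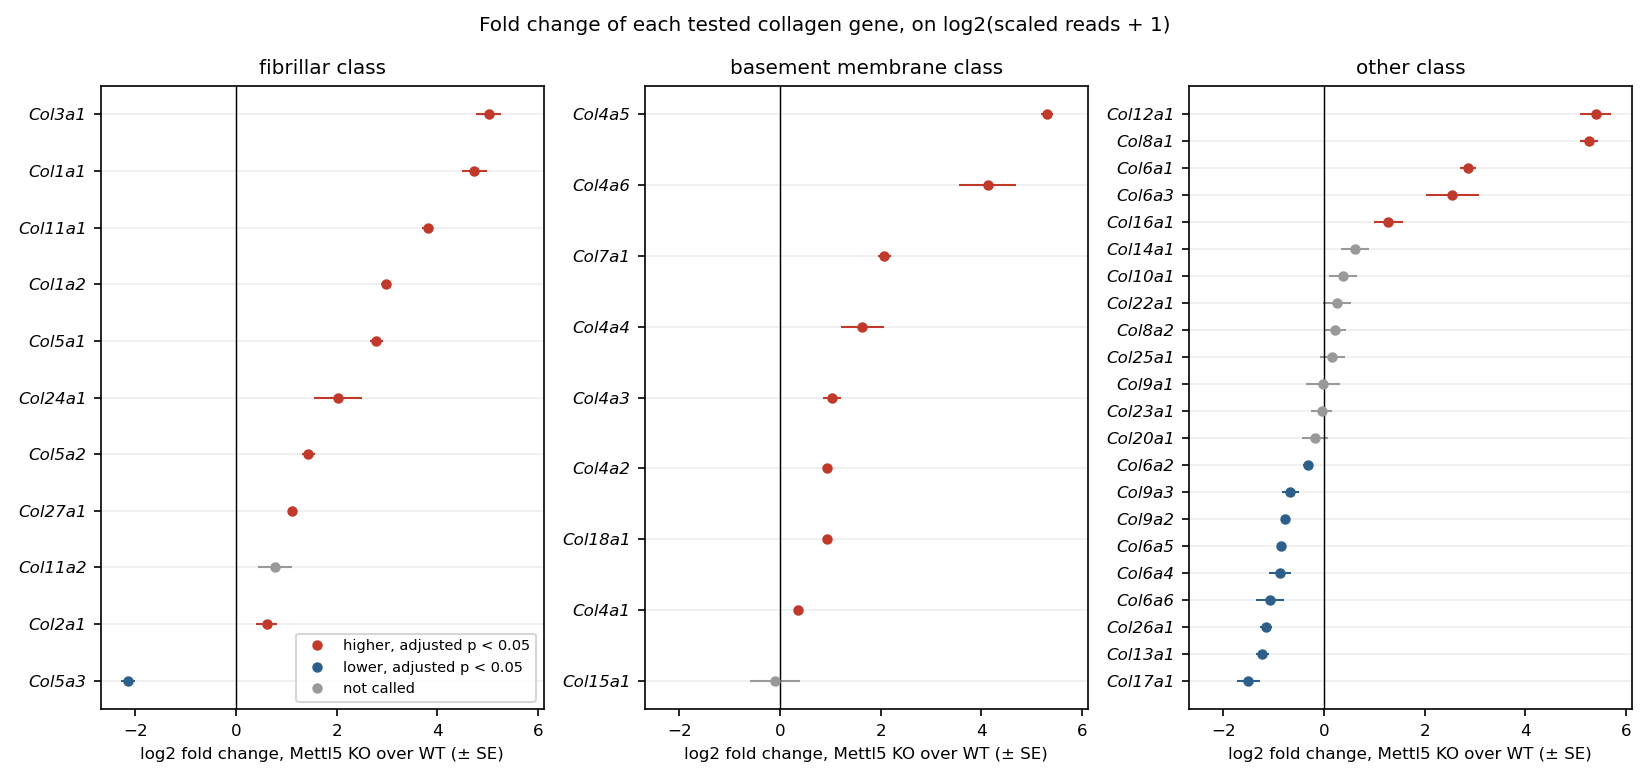
Log2 fold change, Mettl5 KO over WT, with its standard error for each of the 42 tested collagen genes, by class and ordered by size within a class. Red points were called higher, blue points lower and grey points neither, and the fibrillar class runs from Col5a3 at -2.15 to Col3a1 at 5.03.

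Upstream sequences are shown for the members with a called change of at least 3 on the log2 scale that have an entry in RefSeq's promoter table (GRCm38.p6), and for Col5a3, which had the largest fall. RefSeq sequences were matched for 34 of 43 members, and Col1a1, Col12a1 and Col4a3 were among those with none. Each sequence runs 5′ to 3′ on the gene's strand over the 250 bases before its start, and 34 bases that GENCODE places in an exon of Col4a5 are left out. Capitals mark matches on either strand to any of 5 motifs. The CCAAT box was searched as CCAAT. The GC box was searched as GGGCGG. The TATA box was searched as TATAAA. An AP-1 site was searched as TGANTCA, and a TEAD site was searched as GGAATG. No 2 matches overlap in these sequences. The windows are chrX:141475169-141475384 (plus strand) for Col4a5, chr16:57754738-57754987 (minus) for Col8a1, chr1:45311288-45311537 (plus) for Col3a1, chrX:141474077-141474326 (minus) for Col4a6, chr3:114030290-114030539 (plus) for Col11a1 and chr9:20815068-20815317 (minus) for Col5a3.
Col4a5: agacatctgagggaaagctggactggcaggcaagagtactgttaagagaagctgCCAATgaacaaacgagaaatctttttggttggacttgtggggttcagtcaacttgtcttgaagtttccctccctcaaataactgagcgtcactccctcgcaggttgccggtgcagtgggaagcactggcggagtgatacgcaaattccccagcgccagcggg
Col8a1: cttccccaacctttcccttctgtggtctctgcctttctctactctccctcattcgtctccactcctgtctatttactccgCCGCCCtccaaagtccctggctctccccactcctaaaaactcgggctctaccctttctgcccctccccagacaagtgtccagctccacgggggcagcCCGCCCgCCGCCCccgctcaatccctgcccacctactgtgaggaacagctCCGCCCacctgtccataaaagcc
Col3a1: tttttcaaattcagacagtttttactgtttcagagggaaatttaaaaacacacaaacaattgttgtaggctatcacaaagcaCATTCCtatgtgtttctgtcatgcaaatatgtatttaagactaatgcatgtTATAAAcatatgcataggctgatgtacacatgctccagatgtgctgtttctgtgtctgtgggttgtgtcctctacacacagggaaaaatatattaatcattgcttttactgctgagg
Col4a6: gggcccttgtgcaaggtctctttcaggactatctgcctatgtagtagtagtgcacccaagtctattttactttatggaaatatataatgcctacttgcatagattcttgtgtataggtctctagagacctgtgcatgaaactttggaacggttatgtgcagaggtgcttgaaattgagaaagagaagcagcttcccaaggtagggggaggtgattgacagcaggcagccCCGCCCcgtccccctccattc
Col11a1: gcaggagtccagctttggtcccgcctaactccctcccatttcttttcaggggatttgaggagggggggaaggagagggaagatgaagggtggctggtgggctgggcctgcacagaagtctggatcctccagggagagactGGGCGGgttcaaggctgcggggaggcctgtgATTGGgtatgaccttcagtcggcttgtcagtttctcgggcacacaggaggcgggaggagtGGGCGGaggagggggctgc
Col5a3: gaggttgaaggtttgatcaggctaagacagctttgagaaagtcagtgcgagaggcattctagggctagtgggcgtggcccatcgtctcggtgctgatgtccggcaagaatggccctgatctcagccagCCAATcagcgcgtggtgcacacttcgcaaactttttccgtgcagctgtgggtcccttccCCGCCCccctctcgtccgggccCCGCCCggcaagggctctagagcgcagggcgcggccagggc
The windows held different matches. The Col4a5 window held a CCAAT box 196 bases before the start, and a GC box in the stretch left out. The Col3a1 window was 35.2% G and C with no CpG, and held a TATA box 117 bases before the start and a TEAD site 168 bases before it, with no GC box. The Col8a1 window, at 60.8% G and C, held 4 GC boxes, the Col11a1 window 2 GC boxes and a CCAAT box, and the Col4a6 window a single GC box. The Col5a3 window, whose gene fell, also held a CCAAT box and 2 GC boxes. Over all 37 windows of members, 59.5% held a GC box against 32.7% of the 32851 windows in the table, and 35.1% against 33.8% held a CCAAT box. A TATA box was in 13.5% against 12.4%, an AP-1 site in 2.7% against 6.75% and a TEAD site in 10.8% against 12.6%. Median G and C content was 59.2% in windows of members and 52.4% in all windows. These matches describe letters only.

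All 6 type IV chain genes were higher in KO cells, beside 33.6% of all genes. These 6 genes lie in the genome as 3 head-to-head pairs on opposite strands. The annotated starts of Col4a1 and Col4a2 overlap by 22 bases on chromosome 8, Col4a3 and Col4a4 are 71 bases apart on chromosome 1, and Col4a5 and Col4a6 are 1308 bases apart on chromosome X. The chains of the first pair make the network found in nearly all basement membranes. Col4a1 (ENSMUSG00000031502, mm10 chromosome 8, 11198423 to 11312826) was at 33.3, 30.3 and 31.5 in KO libraries and at 25.3, 28.9 and 24.5 in WT libraries. Its groups did not overlap but lay close, with a log2 fold change of 0.35 (SE 0.0641, limma adjusted p 0.000972). Col4a2 (ENSMUSG00000031503, mm10 chromosome 8, 11312805 to 11449287) was at 15.5, 13.6 and 13.4 in KO libraries and at 7.65, 7.73 and 7.65 in WT libraries, with a log2 fold change of 0.94 (SE 0.0643, limma adjusted p 1.26e-06). With libraries rescaled to equal totals these values were 0.20 and 0.79, and with chromosome centring 0.73 and 1.32, all still called.

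The pair on chromosome X, whose chains occur in the basement membranes of smooth muscle, skin and kidney, was close to silent in WT cells. Col4a5 (ENSMUSG00000031274, mm10 chromosome X, 141475385 to 141689234) was at 3.86, 3.72 and 3.76 in KO libraries and at 0.102, 0.0774 and 0.109 in WT libraries. This amounted to a log2 fold change of 5.31 (SE 0.123, limma adjusted p 1.12e-09), or 4.31 on log2(TPM + 0.1). Col4a6, read from the other strand, was at 0.354, 0.33 and 0.318 in KO libraries and at 0.0397, 0.0175 and 0.00162 in WT libraries, with a log2 fold change of 4.13 (SE 0.56, limma adjusted p 0.000147). The WT libraries of Col4a6 spanned a wide range, and its fold change was 4.72 without WT replicate 1 and 3.42 without WT replicate 3. Its scaled reads equalled those of another listed identifier, so reads may have been divided between them. Both genes rose, and the TPM-scale ratio of Col4a5 to Col4a6 was 11.3 ± 0.46 in KO libraries and ranged from 2.57 to 67.0 in WT libraries.

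The pair on chromosome 1 supplies chains of the kidney glomerular membrane. Col4a3 was at 2.05, 2.04 and 1.93 in KO libraries and at 1.11, 1.26 and 0.746 in WT libraries (log2 fold change 1.03, limma adjusted p 0.000834). Its partner Col4a4 was at 0.0936, 0.0524 and 0.0344 in KO libraries and at 0.0107, 0.0153 and 0.0254 in WT libraries (log2 fold change 1.64, limma adjusted p 0.00752). Col4a3 stood above Col4a4 in every library, with TPM-scale ratios of 21.9 to 56.1 in KO and 29.4 to 104 in WT libraries, which overlapped. The exons of Col4a3 share 563 bases with the antisense gene C430014B12Rik. Whether the quantification used strand is not stated in the labels, so reads of such overlapping genes may not have been told apart.

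Col18a1, which encodes a proteoglycan of basement membranes whose end fragment is endostatin, was the most abundant member. It was at 76.6, 75.2 and 75.2 in KO libraries and at 41.8, 41.7 and 40.01 in WT libraries, with a log2 fold change of 0.93 (SE 0.027, limma adjusted p 4.83e-09). It made up 38.1% to 38.9% of all collagen RNA in KO and 37.4% to 39.1% in WT libraries on the TPM scale, ranges that overlapped. On scaled reads its share was 67.3% to 68.0% in KO and 68.3% to 68.8% in WT libraries. Col7a1, the anchoring fibril collagen of skin, was at 7.68, 8.39 and 7.80 in KO libraries and at 1.69, 2.15 and 2.08 in WT libraries (log2 fold change 2.08, limma adjusted p 4.2e-07). Col15a1, the relative of Col18a1, had a mean of 0.0872 in KO and 0.0876 in WT cells and was not called (limma adjusted p 0.87).

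Type VI collagen forms beaded filaments around cells from α1 and α2 chains with a further chain that can differ. Its 6 genes split, with 2 higher and 4 lower, beside 33.6% higher and 28.9% lower among all genes. Col6a1 was at 0.823, 0.735 and 0.74 in KO libraries and at 0.104, 0.0946 and 0.108 in WT libraries, with a log2 fold change of 2.87 (SE 0.162, limma adjusted p 3.56e-07), or 2.10 on log2(TPM + 0.1). Col6a2, on the same strand of chromosome 10, was at 0.447, 0.427 and 0.422 in KO libraries and at 0.568, 0.583 and 0.528 in WT libraries (log2 fold change -0.32, limma adjusted p 0.0142). Col6a3 had means of 0.124 in KO and 0.0181 in WT cells, and KO replicate 3, at 0.213, was more than the other KO libraries at 0.0924 and 0.0656 (log2 fold change 2.55). Without that library the log2 fold change was still positive and called, as it was without any other (2.06 to 2.91).

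The alternative chains, Col6a4, Col6a5 and Col6a6, are neighbours on chromosome 9, all on the minus strand and all lower in KO cells. Col6a5 was the most abundant, at 1.57, 1.62 and 1.95 in KO libraries and at 3.04, 3.38 and 3.11 in WT libraries (log2 fold change -0.85, SE 0.0794, limma adjusted p 1.13e-05). Col6a4 was at 0.637, 0.435 and 0.414 in KO libraries and at 1.11, 1.01 and 0.743 in WT libraries (log2 fold change -0.88). Col6a6 had means of 0.0451 in KO and 0.101 in WT cells (log2 fold change -1.08).

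Fibril-associated collagens, which sit on the surface of fibrils, did not share a direction either. Of the 8 tested, 2 were higher, 2 lower and 4 not called, beside 33.6% higher and 28.9% lower among all genes. Col12a1, which coats type I fibrils in tendon and other tissue under load, was at 2.94, 3.29 and 2.89 in KO libraries and at 0.0561, 0.0441 and 0.129 in WT libraries. The log2 fold change of 5.40 (SE 0.314, limma adjusted p 4.32e-07) was 4.18 on log2(TPM + 0.1). Col16a1 was at 0.816, 1.28 and 0.927 in KO libraries and at 0.45, 0.535 and 0.285 in WT libraries (log2 fold change 1.28). The cartilage chains Col9a2 and Col9a3 fell. Col9a2 was at 3.29, 3.57 and 3.68 in KO libraries and at 6.37, 6.40 and 6.17 in WT libraries (log2 fold change -0.77, limma adjusted p 3.39e-05). Col9a3 was at 1.63, 1.05 and 1.40 in KO libraries and at 2.22, 2.07 and 2.38 in WT libraries (log2 fold change -0.67, limma adjusted p 0.00575). The exons of Col9a3 share 234 bases with Tcfl5 on the opposite strand. Col9a1, Col14a1, Col20a1 and Col22a1 were not called and had mean levels from 0.0412 to 0.497 in KO and from 0.0434 to 0.436 in WT cells. Of these, the Col14a1 libraries did not overlap between genotypes (log2 fold change 0.62, limma adjusted p 0.0764). For Col20a1, the log2 fold change of -0.17 became -0.49 and was called lower without KO replicate 1 (limma adjusted p 0.0433).

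Short-chain collagens form hexagonal lattices, as in the cornea and around vessels. Col8a1 was at 2.54, 2.66 and 2.76 in KO libraries and at 0.0887, 0.0652 and 0.0512 in WT libraries, with a log2 fold change of 5.27 (SE 0.178, limma adjusted p 1.17e-08), or 4.04 on log2(TPM + 0.1). Its partner Col8a2 had means of 0.463 in KO and 0.417 in WT cells, with overlapping libraries and no call (log2 fold change 0.23). Col10a1, a marker of hypertrophic cartilage, had means of 0.0997 in KO and 0.079 in WT cells and was not called either. Of the transmembrane collagens, Col13a1 was at 0.621, 0.748 and 0.817 in KO libraries and at 1.6, 1.96 and 1.75 in WT libraries (log2 fold change -1.23). Col17a1, a hemidesmosome component of epithelia, was at 0.315, 0.238 and 0.404 in KO libraries and at 1.12, 0.687 and 1.03 in WT libraries (log2 fold change -1.51). Col23a1 and Col25a1 were not called, and their groups overlapped at means of 0.139 and 0.224 in KO and 0.147 and 0.213 in WT cells. Col26a1, first described in testis and ovary, was at 2.26, 1.97 and 1.67 in KO libraries and at 4.69, 4.50 and 4.53 in WT libraries (log2 fold change -1.15, limma adjusted p 2.49e-05).

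Chains that assemble into one protein, or that share a start region, were then compared as ratios within each library, which the scaling of a library does not affect. The TPM-scale ratio of Col4a1 to Col4a2 was 2.15, 2.23 and 2.35 in KO libraries and 3.31, 3.74 and 3.20 in WT libraries. The ratio of Col1a1 to Col1a2 was 6.10, 5.68 and 6.22 in KO libraries and 1.28, 3.06 and 1.28 in WT libraries. Neither pair overlapped between genotypes (exact permutation p 0.1, two-sided, the smallest possible), and the ratio of Col9a2 to Col9a3 did (2.69 ± 0.694 in KO and 2.85 ± 0.249 in WT cells, SD, n = 3, exact permutation p 0.8). For pairs with a chain below 1 in both genotypes no test was made. The ratio of Col6a1 to Col6a2 was 1.84, 1.72 and 1.76 in KO libraries and 0.183, 0.162 and 0.205 in WT libraries. That of Col8a1 to Col8a2 was 5.47, 6.51 and 5.35 in KO libraries and 0.244, 0.194 and 0.0933 in WT libraries. On this scale the first-named chain of both pairs was the lower one in WT and the higher one in KO libraries. On scaled reads this held for Col8a1, whereas Col6a1 to Col6a2 was 0.931 ± 0.0321 in KO and 0.0962 ± 0.0114 in WT cells (SD, n = 3). The absolute value of a ratio depends on the transcripts annotated for each gene. On scaled reads, Col1a1 to Col1a2 was 0.909 ± 0.044 in KO and 0.274 ± 0.147 in WT cells (SD, n = 3).

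**Figure D5:**
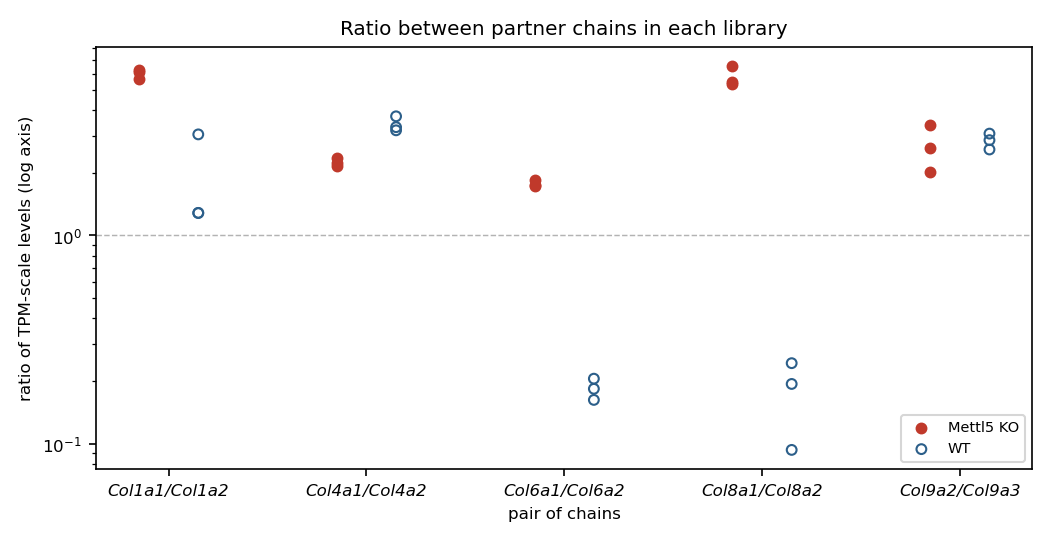
Ratio of TPM-scale levels between partner chains (log axis) in 3 Mettl5 KO (filled) and 3 WT (open) libraries, with a dashed line at equal levels. The Col6a1/Col6a2 and Col8a1/Col8a2 ratios are above 1 in KO and below it in WT libraries, Col4a1/Col4a2 is lower in KO libraries, and Col9a2/Col9a3 overlaps.

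Of 30 tested genes that fold, trim and cross-link collagen chains, 18 were higher in KO cells, 6 lower and 6 not called, with a median log2 fold change of 0.52, beside 33.6% higher and 28.9% lower among all genes. With equal totals 16 were higher and 9 lower, beside 26.1% and 37.8%. Serpinh1, the collagen chaperone HSP47, was at 234, 230 and 231 in KO libraries and at 63.2, 65.1 and 62.5 in WT libraries (log2 fold change 1.92, limma adjusted p 3.94e-11). Bmp1, the protease that removes the propeptide of fibrillar procollagens, was at 31.9, 32.1 and 31.9 in KO libraries and at 1.66, 1.80 and 1.38 in WT libraries (log2 fold change 4.36). The cross-linking oxidase genes Loxl4 and Loxl2 had log2 fold changes of 4.43 and 1.34. Lox, the founding member of that family and named here after its values were seen, averaged 2.43 in KO and 0.0361 in WT cells (log2 fold change 6.03). The lower genes were P4ha1, Plod1, P3h3, Colgalt1, Adamts14 and Pcolce, with log2 fold changes of -0.14 to -0.63. Collagen receptor genes had 5 of 10 higher and 2 lower (median log2 fold change 0.65), beside the same 33.6% and 28.9% of all genes. The discoidin domain receptor gene Ddr1 was at 34.3, 33.2 and 34.8 in KO libraries and at 10.4, 9.99 and 9.56 in WT libraries (log2 fold change 1.83). The integrin genes Itgb1, Itga1 and Itga11 had log2 fold changes of 0.99, 1.49 and 3.01, and the 2 lower genes were Ddr2 and Itga10 (-0.99 and -0.89).

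Markers of other cell types were counted beside the 33.6% of all genes called higher, the 28.9% called lower and the 62.6% called in either direction. Of 20 fibroblast markers, none of them a collagen, 16 were higher, 3 lower and 1 not called (median log2 fold change 2.28). They summed to 393 to 408 on the TPM scale in KO and 96.6 to 106 in WT libraries, with Vim alone at a mean of 294 in KO and 49.5 in WT cells. The fibroblast markers Thy1, Pdgfra and Mfap5 were the lower ones, with log2 fold changes of -1.07, -1.02 and -1.29. The proteoglycan genes Lum and Dcn were at 0.114 and 0.671 in KO cells and at 0.0145 and 0.0821 in WT cells. Of 12 markers of parietal or primitive endoderm, which makes much type IV collagen, 8 were lower and 3 higher, and the sum was 87.5 to 91.97 in KO and 110.1 to 112.4 in WT libraries. Gata6, Gata4 and Sox17, among the lower ones, were at 0.54, 1.62 and 0.213 in KO cells and at 2.13, 3.77 and 1.90 in WT cells. The 3 higher ones were Thbd, Lamb1 and Lamc1, with log2 fold changes of 3.67, 0.67 and 0.20. Lamb1 and Lamc1 made up most of the sum, at 32.5 and 40.4 in KO cells and at 21.2 and 36.8 in WT cells. Of 7 chondrocyte markers listed, 2 were higher and 2 lower, and the sum was 4.02 to 4.64 in KO and 5.78 to 6.37 in WT libraries. Of 5 endothelial markers, 1 was higher and 2 lower, and the sum was 12.7 to 13.6 in KO and 30.9 to 33.4 in WT libraries. Most of the endothelial sum was Pecam1, at a mean of 9.53 in KO and 28.9 in WT cells. The higher endothelial marker was Kdr (log2 fold change 2.29). The shares of the chondrocyte and endothelial lists called in either direction were thus near that of all genes. The part of any of these cell types in the collagen values was not tested.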

How the data were processed

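The authors quantified 3 Mettl5 KO and 3 WT polyA libraries with kallisto and sleuth on mm10, per the submitters' processing notes. Not given in the sources used here were tool versions, annotation and the strand setting of the quantification. Deposited signal values, per the file headers, are scaled reads per base and TPM. TPM values summed to between 1019930 and 1022473 in KO libraries and between 969838 and 978167 in WT libraries, hence the name TPM scale. Names, coordinates and transcript lengths came from GENCODE M21 (GRCm38), which matched 23846 of 24191 identifiers. All value columns were mapped to samples by name.

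An intensity-trend model was fitted with limma 3.58.1 in R 4.3.3 to log2(scaled reads + 1), keeping genes whose mean reached 1 (24183 genes), with no covariates. Adjustment was by the Benjamini-Hochberg method over this whole set, with a threshold of 0.05, and the script was tested on simulated data. Sums and ratios used exact permutation tests (scipy 1.17.1). Python 3.11.15, pandas 2.3.3, numpy 2.4.6 and matplotlib 3.10.9 were used. Every member is named. Members averaging at least 1 TPM in a genotype, and all fibrillar and type IV genes, get fuller values, and the processing and receptor genes named first have the 4 smallest p-values of their list. Members and lists were chosen with earlier results of these data known. Alternatives were other scalings, filters, pseudocounts, the TPM column, chromosome centring, no trend, a replicate block, leaving out each library and, added after seeing the data, a test against a 1.5-fold change.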

Additional observations from a re-analysis of the deposited data

How the results depend on the processing

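Of 42 tested members, 30 kept their call under each of the 17 alternatives in which they were tested, and no called member changed direction. A test against a 1.5-fold change, an alternative chosen after seeing the data, asks for more. It gave 17 higher members (22 without it) and 5 lower ones (10), beside 11.9% and 9.01% of all genes. By class, 8 fibrillar (9), 5 basement membrane (8) and 4 other members (5) were higher. Lower were 1 fibrillar (1) and 4 other members (9). Processing genes had 12 higher (18) and 0 lower (6), and receptor genes 5 higher (5) and 0 lower (2). Leaving out 1 library gave 21 to 23 higher and 10 to 11 lower members, beside 31.2% to 32.9% and 26.3% to 27.4% of all genes. It changed the call of Col2a1, Col11a2 or Col20a1 only. Summed as scaled reads, the other classes had a log2 ratio of 0.051 in place of -0.20. A sum of scaled reads weights each gene by its scaled reads per TPM unit, which differed between members. Which members made the difference was not tested. Fold changes depend on the pseudocount, also for members with the largest: on log2(TPM + 0.1), Col12a1 had 4.18 in place of 5.40, Col8a1 4.04 in place of 5.27, Col4a5 4.31 in place of 5.31, Col3a1 4.33 in place of 5.03, Col6a1 2.10 in place of 2.87, Col6a6 -0.46 in place of -1.08, Col4a6 had 1.87 in place of 4.13, Col6a3 0.87 in place of 2.55, Col4a4 0.44 in place of 1.64 and Col24a1 1.00 in place of 2.02, all still called. With a mean of at least 20 scaled reads required, 7 members were not tested.

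Same-numbered libraries did not deviate together (correlations -0.00943, 0.0383 and 0.0443). The labels do not say whether they were prepared together, and these correlations cannot decide it. A replicate block gave 22 higher and 10 lower members, beside 33.8% and 28.6% of all genes, and changed no call of a member. Members with values near 0 in WT cells, such as Col4a6, Col24a1 and Col4a4, are limited by depth.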

Other observations

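Genes with a collagen-like domain that lie outside the naming rule, a list drawn up after the collagen values were seen, were counted in the same way. Of 20 tested, 4 were higher in KO cells, 7 lower and 9 not called (limma, adjusted p under 0.05), with a median log2 fold change of -0.20, beside 33.6% higher and 28.9% lower among all genes. Colec12, a scavenger receptor with a collagen-like stalk, was at a mean of 19.5 on the TPM scale in KO and 1.43 in WT cells (log2 fold change 3.81, limma adjusted p 5.4e-11), and it made up much of the list's sum of 36.2 to 38.8 in KO and 23.7 to 25.4 in WT libraries. Mbl2, a serum lectin, was at 0.203 in KO and 1.54 in WT cells (log2 fold change -2.76).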
